A study of Mus musculus with 2 samples.

Results

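The genes of the mitochondrial ribosome were followed here in mouse embryo fibroblasts with and without Ebp1. Members were the genes whose only annotated symbol was Mrpl or Mrps followed by a number, without pseudogenes. There were 76 of them among 18193 genes with 1 symbol, 47 named for the large subunit and 29 for the small subunit. Mrpl30 and Mrpl53 were left out because their probe sets carry a second symbol. The cells were Ebp1 knock out fibroblasts (MEFs) and wild type MEFs, both from embryos of day 12.5, both cultured with serum and both at passage 2. The knock out allele is a retroviral gene trap within intron 2 of Ebp1 (Pa2g4), present in all cells of the mouse and made in 129/SvEvBrd stem cells crossed to C57BL/6, and the wild type cells lack it. Total RNA of each genotype was measured on 1 array, and the sources used here do not state whether embryos were pooled. With no replicate there is no error, interval or p-value for any difference below, and each ratio compares these 2 RNA preparations.

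Mitochondria keep their own ribosome, which translates the few proteins encoded by mitochondrial DNA, all of them parts of the respiratory chain and ATP synthase. Its RNA comes from mitochondrial DNA, while every one of its proteins is encoded in the nucleus, made in the cytosol and imported. The large subunit joins amino acids and lets the new chain out toward the inner membrane, and the small subunit reads the messenger RNA. Part of the proteins descend from bacterial ribosomal proteins and part are found only in mitochondria.

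Values are MAS5 signals, the intensity summary of a probe set, scaled by the authors to a trimmed mean of 250.001 on both arrays. The median signal was 71.6 in the knock out and 66.5 in the wild type, and 57.1% of probe sets in the knock out and 57.9% in the wild type lay under 100, the level called low here. The targeted gene Pa2g4 had a signal of 1178 in the knock out and 1835 in the wild type, a log2 ratio of -0.64, and its 5 probe sets ran from -0.90 to -0.33. The trapped gene thus kept a signal, and where its probes lie relative to the trap was not examined. By RT-PCR and Western blot the paper found neither Ebp1 transcript nor protein in knock out MEFs. Why the array signal differs from this was not tested. All 9 fibroblast markers that were found reached 500 on both arrays, between 1952 and 11051 in the knock out and between 3098 and 9308 in the wild type. They did not move together, since Pdgfrb (-0.67), Col6a1 (-0.62), Thy1 (-0.58) and Col3a1 (-0.11) were lower in the knock out and the other 5, such as S100a4 (0.39), Col1a2 (0.26) and Vim (0.25), higher. Of the markers of other cell types, Epcam of epithelium was 1350.5 in the knock out and 174 in the wild type, while Krt5 was 108 in the knock out and 138 in the wild type, and Cdh1, Krt8 and Krt18 were low on both arrays. The 5 epithelial markers summed to 1669 in the knock out and 486 in the wild type, a difference that rests on Epcam. Endothelial, blood and skeletal muscle markers stayed under 500 on both arrays (4, 5 and 4 genes), and of 4 neural markers only Map2 reached 500. The 9 hybridization spike-in probe sets were 1.31-fold brighter on the knock out array. What part the fibroblast markers, Epcam and the spike-ins have in the values below was not tested, and in bulk RNA fewer cells of a type and less RNA per cell cannot be told apart.

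The mitochondrial ribosomal protein genes were close to level between the genotypes. A signal of 500 on at least 1 array was reached by 61 of the 76, 38 of the large and 23 of the small subunit, and no member was low on either array. The log2 ratio (knock out over wild type) had a median of 0.04 over the 61, with quartiles of -0.12 and 0.16 and a full range of -0.61 to 0.43. Over all 5014 genes that reached 500 the median was -0.05 and the quartiles were -0.24 and 0.13. None of the 61 was over 2-fold higher or over 2-fold lower in the knock out, where 0.758% and 1.06% of all genes were. None was over 1.5-fold higher, against 2.99% of all genes, and 1 was over 1.5-fold lower, against 5.11% of all genes. With 61 members these shares amount to few genes, so the counts stand near the background.

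More members lay above than below 0. A log2 ratio above 0 was found for 34 of the 61 members (55.7%) and for 42.2% of all genes. This direction rests on the scaling, since the median of the members was -0.07 after median centring of each array and -0.37 after scaling to the spike-ins, when 34.4% and 3.45% of members and 27.2% and 5.31% of all genes were above 0. Quantile and loess normalization left it at 0.05 and 0.07. Over all 76 members the median was 0.04, with 43 above 0.

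**Figure D1:**
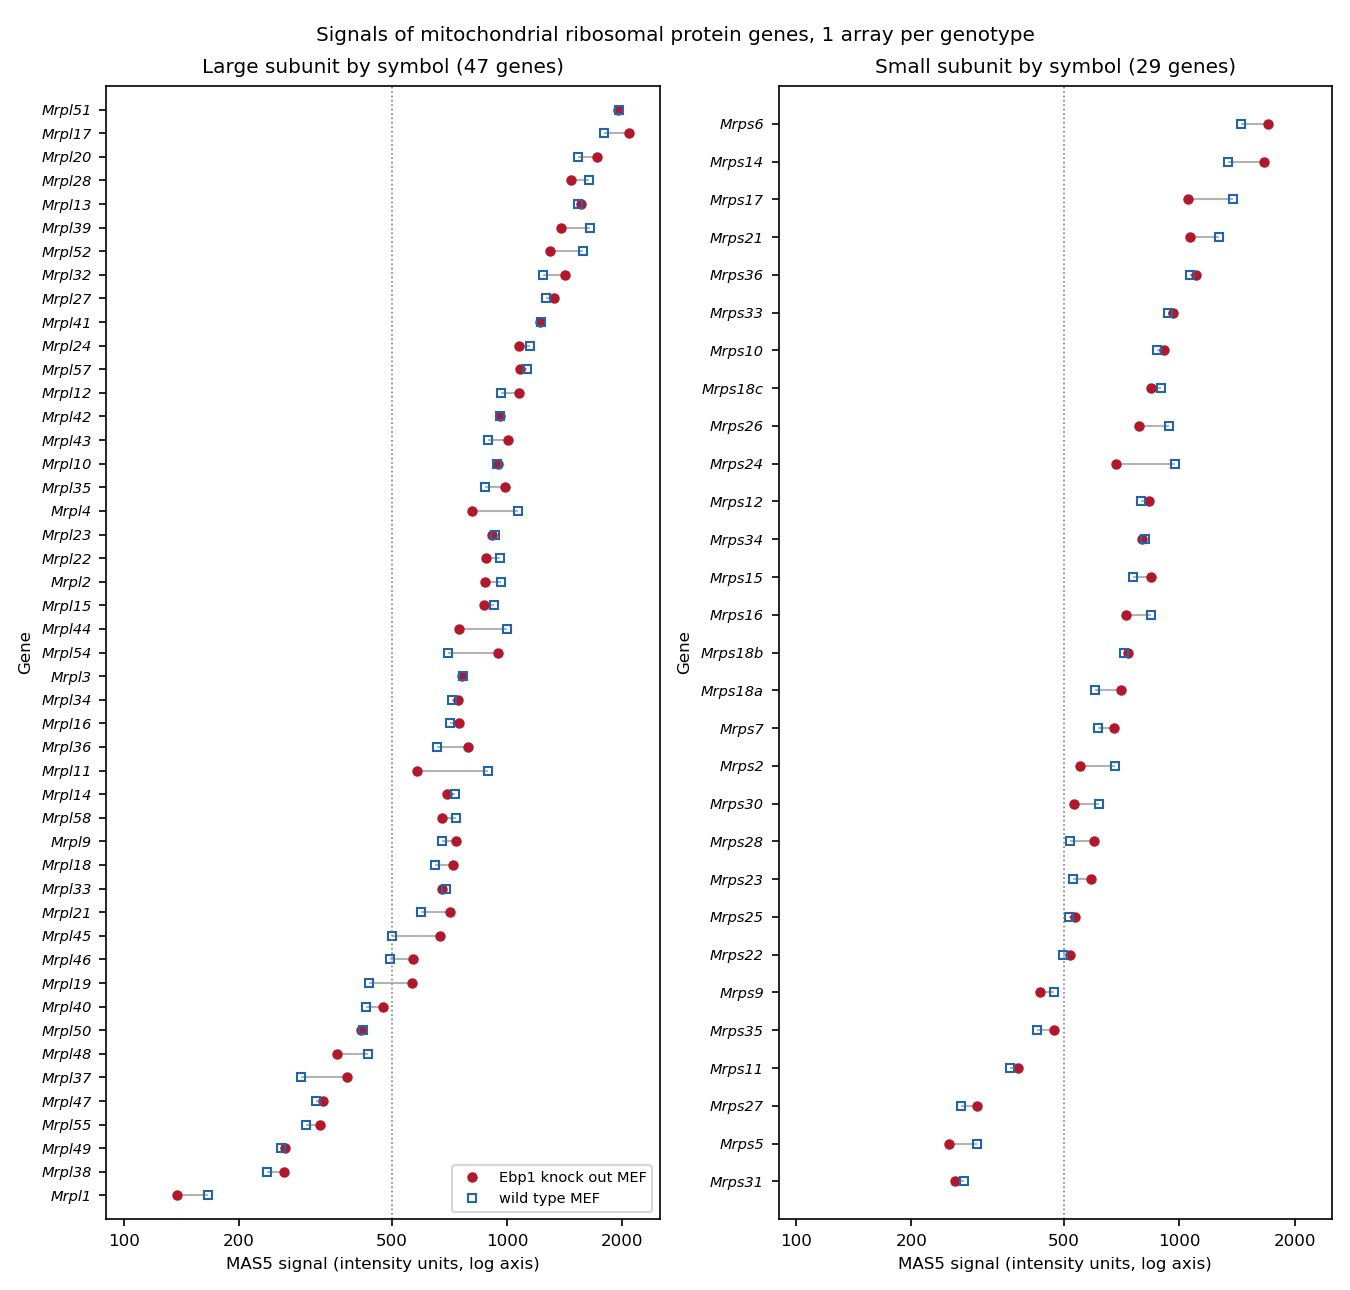
MAS5 signal (log axis) of each mitochondrial ribosomal protein gene on the Ebp1 knock out array (filled circles) and the wild type array (open squares), with a panel for each subunit and a dotted line at 500. In most rows the 2 symbols lie close together, and no gene lies under 100 on either array.

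The subunits had medians close to each other. The 38 large subunit genes had a median log2 ratio of 0.01, with 20 above 0 and 18 below, and the 23 small subunit genes had 0.05, with 14 above 0 and 9 below. The difference of the medians, large minus small, was -0.04, beside an SD over genes of 0.22 in each subunit. It was 0.06 when the ratios of all probe sets of a gene were averaged. Mrps30 and Mrps18a bear small subunit names, yet their proteins sit in the large subunit of the mammalian structure, and moving both left the difference at -0.04.

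The members were less spread than other genes of like signal. Between a mean signal of 500 and 1000 the SD of the log2 ratio was 0.23 over 42 members and 0.33 over 2294 other genes, and 2.38% of the members and 7.85% of the others were past 1.5-fold in either direction. Between 1000 and 2000 it was 0.20 over 18 members and 0.31 over 1333 other genes, with none of the members and 6.08% of the others past 1.5-fold. Between 250 and 500 it was 0.20 over 14 members and 0.40 over 2608 other genes. Of the members that reached 500, 51 lay within 0.3 of level on the log2 scale (83.6%), as did 70.0% of other genes. A narrow spread was not particular to the members. Over genes that reached 500 the SD was 0.22 for the members and 0.16 for 71 nuclear genes of oxidative phosphorylation. It was 0.19 for 41 cytosolic ribosomal protein genes, and these lists were not matched by signal. These are descriptions of 1 pair of arrays and were not tested.

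**Figure D2:**
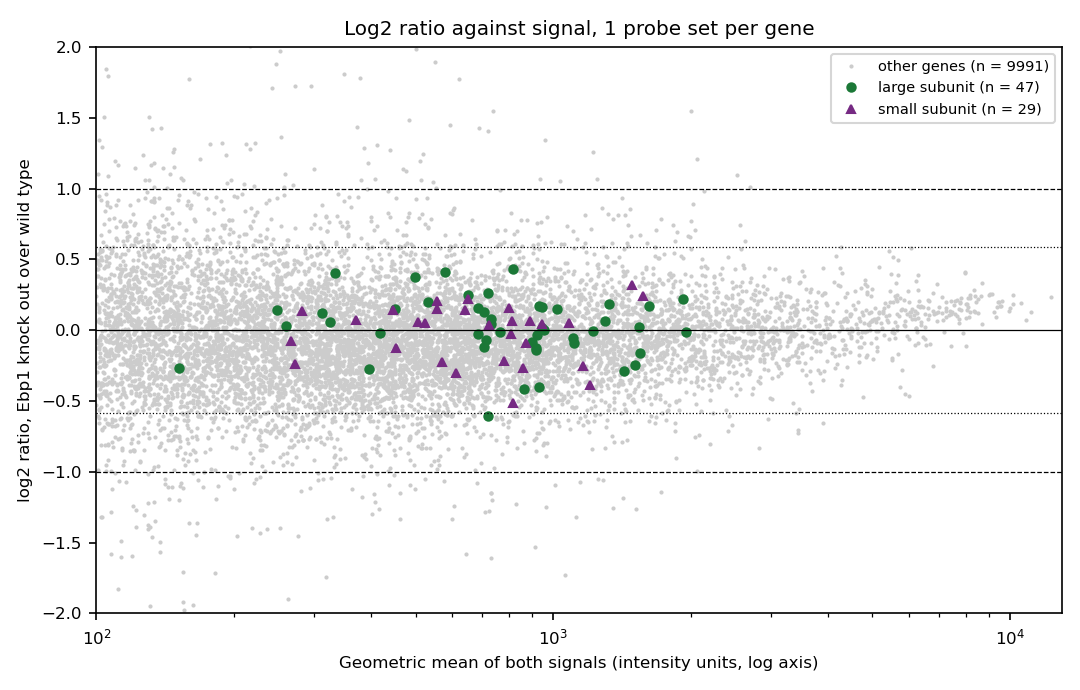
Log2 ratio of Ebp1 knock out over wild type against the geometric mean of both signals (log axis), 1 probe set per gene, for 47 large subunit genes (circles), 29 small subunit genes (triangles) and 9991 other genes (grey), of which 29 lie beyond the axis. Dotted lines mark 1.5-fold and dashed lines 2-fold. Mrpl11 is the only member beyond a dotted line.

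The brightest members held level genes and genes off level in both directions. Signals of different probe sets are not on a common scale, so brightness serves here only to pick genes measured well. Mrpl51, a protein found only in mitochondrial ribosomes, had a signal of 1948 in the knock out and 1964 in the wild type, a log2 ratio of -0.01. Mrpl13, related to bacterial uL13, had 1556 in the knock out and 1530 in the wild type, a log2 ratio of 0.02. Both genes were level. Mrpl17, the counterpart of bacterial bL17, had 2077 in the knock out and 1787 in the wild type, a log2 ratio of 0.22. Mrpl20, whose bacterial relative binds the large ribosomal RNA early in assembly, had 1719 in the knock out and 1528 in the wild type (0.17). These 2 were higher in the knock out at this scaling, by 0.11 and 0.06 after median centring, but the spike-in scaling put them at -0.17 and -0.22. Mrpl28 had 1467 in the knock out and 1639 in the wild type (-0.16). Mrpl32, which is cut by the protease AFG3L2 before it joins the ribosome, had 1414 in the knock out and 1243 in the wild type (0.19). Mrpl39 and Mrpl52, also among the 8 brightest of the large subunit, were at -0.25 and -0.29. Of the 8 brightest genes of the small subunit, Mrps14 (0.32) and Mrps6 (0.24) were higher in the knock out and Mrps17 (-0.39) and Mrps21 (-0.25) lower, while the other 4 were within 0.1 of level. Of these, Mrps36 had 1101 in the knock out and 1063 in the wild type (0.05). Mrps33 had 961 in the knock out and 933 in the wild type (0.04). Mrps10, related to bacterial uS10, had 911 in the knock out and 872 in the wild type (0.06). Mrps36 carries the name of a ribosomal protein, though its product was later assigned to the 2-oxoglutarate dehydrogenase complex.

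At the upper end, 4 members that reached 500 exceeded a log2 ratio of 0.3. Mrpl54, a mitochondria-specific protein of the large subunit, had a signal of 945 in the knock out and 702 in the wild type, a log2 ratio of 0.43. Mrpl45, which tethers the ribosome to the inner membrane near the exit of the new chain, had 668 in the knock out and 502 in the wild type (0.41). Mrpl19, at the face toward the small subunit, had 566 in the knock out and 436 in the wild type (0.38). It reached 500 only in the knock out, so the minimum itself favoured a higher ratio for Mrpl19. All 3 belong to the large subunit. Mrps14, in the head of the small subunit, had 1665 in the knock out and 1335 in the wild type (0.32), and its second probe set above 100 had 259 in the knock out and 211 in the wild type (0.30), so both were higher in the knock out. Below these came Mrpl36 with 791 in the knock out and 658 in the wild type (0.27), Mrpl21 with 708 in the knock out and 596 in the wild type (0.25) and Mrps6 with 1706 in the knock out and 1444 in the wild type (0.24). Mrpl36 is among the smallest ribosomal proteins and Mrps6 lies in the platform of the small subunit. All 7 ratios were under 1.5-fold. A second probe set of Mrpl21 above 100 had 104 in the knock out and 135 in the wild type (-0.37), on the other side of 0.

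At the lower end, 6 members lay beyond -0.3. Mrpl11, at the base of the stalk where elongation factors bind, had a signal of 583 in the knock out and 890 in the wild type, a log2 ratio of -0.61, the only one past 1.5-fold. Mrps24, the counterpart of bacterial uS3 at the entry of the messenger RNA, had 682 in the knock out and 973 in the wild type (-0.51). Its other probe set had 737 in the knock out and 855 in the wild type (-0.21), so the size differed but not the side. Both probe sets carry a suffix for probes that may also match other transcripts. Mrpl4, which lines the tunnel of the new chain, had 809 in the knock out and 1068 in the wild type (-0.40) on its only probe set. Mrps17, a small subunit protein of bacterial origin, had 1053 in the knock out and 1377 in the wild type (-0.39), also on 1 probe set. Neither of these has a second measurement on the array. Mrpl44, a protein with a ribonuclease III fold, had 749.5 in the knock out and 999 in the wild type (-0.41). Mrps2 had 550 in the knock out and 679 in the wild type (-0.30). Its other probe set, with 163 in the knock out and 110 in the wild type (0.57), lay on the other side of 0. Mrpl52 with 1291 in the knock out and 1577 in the wild type (-0.29), Mrps26 with 782 in the knock out and 940 in the wild type (-0.26), Mrps21 with 1065 in the knock out and 1271 in the wild type (-0.25) and Mrpl39 with 1384 in the knock out and 1641 in the wild type (-0.25) followed. The other probe set of Mrpl39 had 950 in the knock out and 784 in the wild type (0.28), on the other side of 0.

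Several genes have more than 1 probe set, and these often differed by as much as the genotypes did. The 76 members had 156 probe sets of their own, 34 members having 1 and 42 having several, and 26 members had at least 2 probe sets with 100 or more on both arrays. Within a gene the log2 ratios of such probe sets had a pooled SD of 0.37, beside 0.34 over all 3913 genes with as many. For 17 of the 26 members they lay on both sides of 0, as they did for 2032 of the 3913 genes. Of the 61 members 8 had a log2 ratio larger in size than the SD of 0.37, and the other 53 were within it. The same count was not made over all genes. The widest range, 1.22, was that of Mrpl11. Its brightest probe set (-0.61) and another (208 in the knock out and 397 in the wild type, -0.93) carry the suffix for probes that may also match other transcripts. Its probe set without that suffix had 771 in the knock out and 631 in the wild type, a log2 ratio of 0.29, on the other side of 0. The single member past 1.5-fold was thus higher in the knock out on one probe set and lower on others.

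Mrpl44 and Mrpl19 show the same kind of disagreement. Mrpl44 had log2 ratios of -0.41 and -0.38 on its 2 brightest probe sets, and of 0.49 (385 in the knock out and 274 in the wild type) and 0.70 (195 in the knock out and 120 in the wild type) on the dimmer ones. Mrpl19 had 639 in the knock out and 314 in the wild type on a second probe set, a log2 ratio of 1.03. Mrpl9, a bL9 relative whose main probe set had 737 in the knock out and 674 in the wild type (0.13), had 461 in the knock out and 220 in the wild type (1.07) on another and 562 in the knock out and 502 in the wild type (0.16) on the third. The probe set of Mrpl19 at 1.03 and that of Mrpl9 at 1.07 were the only ones past 2-fold among the members' probe sets with 100 or more on both arrays. Mrps23 stayed on one side, with 0.15, 0.65 and 0.63 on 3 probe sets. Of the 116 probe sets of members with 100 or more on both arrays, 6 were over 1.5-fold higher in the knock out and 2, both of Mrpl11, over 1.5-fold lower. The probe sets of other genes were not counted in this way.

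**Figure D3:**
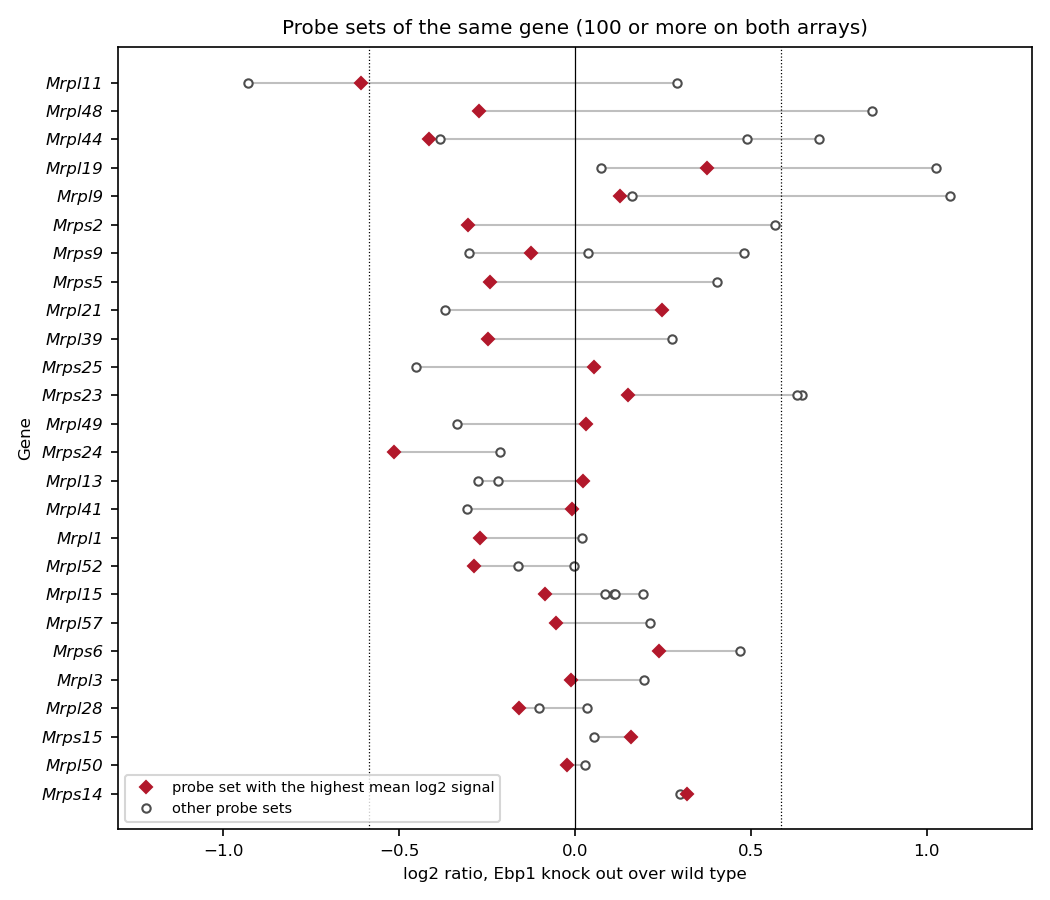
Log2 ratio of Ebp1 knock out over wild type on each probe set with 100 or more on both arrays, for the 26 members with at least 2 of them, ordered by range. Diamonds mark the probe set that gives the gene its value, circles the others, and dotted lines 1.5-fold. The diamonds and circles of 17 genes fall on both sides of 0.

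By place in the ribosome, each region held genes on both sides of 0. Of the stalk proteins, Mrpl12, the flexible part that recruits translation factors, had a signal of 1075 in the knock out and 967 in the wild type (0.15). Mrpl10, which anchors it, had 948 in the knock out and 939 in the wild type (0.01). Mrpl1, of the other stalk near the exit site of the transfer RNA, had 138 in the knock out and 166 in the wild type (-0.27). Mrpl11 completes the 4. Around the tunnel exit, Mrpl22 had 880 in the knock out and 958 in the wild type (-0.12), Mrpl23 had 911 in the knock out and 932 in the wild type (-0.03) and Mrpl24 had 1074 in the knock out and 1145 in the wild type (-0.09). With Mrpl44 (-0.41) and Mrpl45 (0.41) the exit group of 5 had a median of -0.09, 4 below 0 and 1 above, and its outer members pointed opposite ways.

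The cores of the subunits held genes of both signs. Of 9 large subunit core proteins of bacterial descent, 5 were above 0 and 4 below, with a median of 0.02. They include Mrpl3, with 763 in the knock out and 769 in the wild type (-0.01), Mrpl2, next to the peptidyl transferase centre, with 874 in the knock out and 964 in the wild type (-0.14), and Mrpl27, which reaches into that centre in bacteria, with 1329 in the knock out and 1267 in the wild type (0.07). The others were Mrpl14 (-0.07) and Mrpl16 (0.08) besides Mrpl4, Mrpl13, Mrpl19 and Mrpl20. Of 13 small subunit core proteins that reached 500, 7 were above 0 and 6 below, with a median of 0.06. Mrps12, of the decoding centre, had 832 in the knock out and 795 in the wild type (0.07). Mrps7 (0.14), Mrps15 (0.16) and Mrps28 (0.21) were higher, and Mrps16 had 725 in the knock out and 844 in the wild type (-0.22).

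Genes of bacterial descent and genes found only in mitochondria also had medians close to each other. The 41 members with a bacterial homologue had a median log2 ratio of 0.05, and the 19 found only in mitochondria had -0.01. Mrpl58, which frees stalled ribosomes by cutting the peptidyl-tRNA, had a signal of 678 in the knock out and 736 in the wild type (-0.12). Mrpl46 had 570 in the knock out and 496 in the wild type (0.20), and reached 500 only in the knock out. Both medians were negative after median centring (-0.06 and -0.11).

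Mrps18a, Mrps18b and Mrps18c are 3 genes for versions of 1 bacterial protein, bS18, of which Mrps18c is the one in the bacterial position. Mrps18a had a signal of 702 in the knock out and 602 in the wild type, a log2 ratio of 0.22. Mrps18b had 734 in the knock out and 716 in the wild type (0.04). Mrps18c had 844 in the knock out and 897 in the wild type (-0.09). The 3 ratios spanned both sides of 0, all within 1.5-fold. Mrps30, the other protein named for the small subunit but placed in the large, had 530 in the knock out and 618 in the wild type (-0.22).

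The promoters of these genes were read from RefSeq for the build GRCm38.p6, as windows of 300 bases, 250 before the start of the gene and 50 after it. Nuclear genes for mitochondrial proteins are known for sites of NRF1, of ETS factors such as GABP and of YY1 close to their starts. The windows shown are those of the 3 bS18 genes, which share the ETS letters while Mrps18a also holds the YY1 letters and Mrps18b the NRF1 letters, of Mrpl45, which has 3 matches to NRF1 letters, and of Mrps24 and Mrps11, which hold the YY1 letters. Capitals mark matches, on either strand, to GCGCANGCG for NRF1, CCGGAAG for ETS and AAGATGGCG for YY1. All are given 5′ to 3′ on the strand of the gene.
Mrps18a promoter (chr17:46110754-46111053, plus strand): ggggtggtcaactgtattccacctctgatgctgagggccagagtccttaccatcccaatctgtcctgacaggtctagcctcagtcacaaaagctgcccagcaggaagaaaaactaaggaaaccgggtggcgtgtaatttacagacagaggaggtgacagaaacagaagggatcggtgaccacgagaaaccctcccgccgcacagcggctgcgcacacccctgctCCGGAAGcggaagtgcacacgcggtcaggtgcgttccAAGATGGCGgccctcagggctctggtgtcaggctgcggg
Mrps18b promoter (chr17:35916391-35916690, minus strand): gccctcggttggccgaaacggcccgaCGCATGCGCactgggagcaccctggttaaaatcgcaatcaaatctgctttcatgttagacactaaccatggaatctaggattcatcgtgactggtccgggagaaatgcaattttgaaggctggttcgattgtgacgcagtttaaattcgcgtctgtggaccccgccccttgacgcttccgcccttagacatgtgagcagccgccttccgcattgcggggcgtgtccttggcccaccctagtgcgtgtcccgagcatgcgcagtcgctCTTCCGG
Mrps18c promoter (chr5:100798509-100798808, plus strand): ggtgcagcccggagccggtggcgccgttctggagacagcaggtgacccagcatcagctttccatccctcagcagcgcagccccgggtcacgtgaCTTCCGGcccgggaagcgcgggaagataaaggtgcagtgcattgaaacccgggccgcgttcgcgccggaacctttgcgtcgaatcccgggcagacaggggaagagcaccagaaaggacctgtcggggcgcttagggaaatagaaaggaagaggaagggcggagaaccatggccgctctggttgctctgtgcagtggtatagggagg
Mrpl45 promoter (chr11:97315466-97315765, plus strand): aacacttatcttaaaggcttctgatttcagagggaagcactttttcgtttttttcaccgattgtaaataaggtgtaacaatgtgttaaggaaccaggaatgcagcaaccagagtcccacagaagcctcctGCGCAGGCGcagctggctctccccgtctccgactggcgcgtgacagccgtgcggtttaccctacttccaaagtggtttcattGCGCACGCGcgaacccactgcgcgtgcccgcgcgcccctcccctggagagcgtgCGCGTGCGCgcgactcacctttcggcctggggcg
Mrps24 promoter (chr11:5707652-5707951, minus strand): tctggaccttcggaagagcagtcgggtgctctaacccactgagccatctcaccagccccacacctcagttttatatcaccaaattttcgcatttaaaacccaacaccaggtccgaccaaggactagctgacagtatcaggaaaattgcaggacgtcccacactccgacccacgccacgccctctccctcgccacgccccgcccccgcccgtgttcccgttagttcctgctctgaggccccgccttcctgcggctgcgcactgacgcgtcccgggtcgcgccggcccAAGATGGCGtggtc
Mrps11 promoter (chr7:78782881-78783180, plus strand): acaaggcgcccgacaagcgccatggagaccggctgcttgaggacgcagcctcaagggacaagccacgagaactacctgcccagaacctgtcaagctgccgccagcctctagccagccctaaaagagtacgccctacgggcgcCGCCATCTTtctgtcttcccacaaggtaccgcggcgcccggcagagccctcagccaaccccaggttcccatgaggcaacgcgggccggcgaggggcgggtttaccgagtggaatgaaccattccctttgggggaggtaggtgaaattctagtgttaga

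Of the 76 members 67 had a RefSeq promoter, and 40 of them (59.7%) held at least 1 of these motifs. Among other genes that reached 500 the share was 39.0% of 4067, and in the whole table it was 16.5% of 27025. The 67 members were not held to the minimum of 500. Of those that reached it, 35 held a motif and 19 did not. NRF1 letters were found for 15 members (22.4%), 17.6% of other genes that reached 500 and 7.03% of the table. ETS letters were found for 25 members (37.3%), 23.2% of other genes that reached 500 and 9.93% of the table. YY1 letters were found for 8 members (11.9%), 4.72% of other genes that reached 500 and 1.64% of the table. The end of the ETS letters can overlap the start of the YY1 letters, and the end of the YY1 letters the start of the NRF1 letters. A match says only that the letters are there. By subunit, 26 of 41 large and 14 of 26 small subunit genes held any of them. The 35 members with a motif that reached 500 had a median log2 ratio of 0.04 and the 19 without had 0.05. Mrpl45 with its 3 matches was at 0.41, and Mrps24, with the YY1 letters, at -0.51, so genes with motifs lay at both ends.

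Of the factors themselves, Yy1 had a signal of 1556 in the knock out and 1565 in the wild type (-0.01). Gabpa had 610 in the knock out and 704 in the wild type (-0.21). Nrf1 stayed under 500, with 248.5 in the knock out and 201 in the wild type. Myc, which drives many genes of ribosome production, had 725 in the knock out and 519 in the wild type (0.48). Sp1 had 994 in the knock out and 1292 in the wild type (-0.38). Pprc1, a coactivator for NRF1, had 628 in the knock out and 564 in the wild type (0.16). Of the 12 regulators listed, 5 reached 500 and none of these was past 1.5-fold.

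Many members start close to a neighbour on the other strand. For 25 of the 67 members (37.3%) a start on the other strand lay head to head within 1000 bases, against 20.2% of other genes that reached 500 and 12.3% of the table. Mrpl46 and Mrps11, one from each subunit, start 42 bases apart. Mrpl46 had a log2 ratio of 0.20, and Mrps11, with a signal of 380 in the knock out and 361 in the wild type, had 0.07. Mrps12 starts 147 bases from Sars2, the mitochondrial seryl-tRNA synthetase, which had 137 in the knock out and 186 in the wild type (-0.44). Mrpl43, with 1003 in the knock out and 894 in the wild type (0.17), starts 116 bases from Twnk, the helicase of mitochondrial DNA, with 296 in the knock out and 326 in the wild type (-0.14). Mrpl47 starts 308 bases from Ndufb5, a complex I subunit (1850 in the knock out and 1891 in the wild type, -0.03). Mrpl18 (724 in the knock out and 649 in the wild type, 0.16) starts 238 bases from the chaperonin gene Tcp1 (4312 in the knock out and 3585 in the wild type, 0.27). Mrpl32 starts 205 bases from the proteasome gene Psma2 (2833 in the knock out and 2652 in the wild type, 0.10). Partners were on the same side of 0 in some pairs and not in others.

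**Figure D4:**
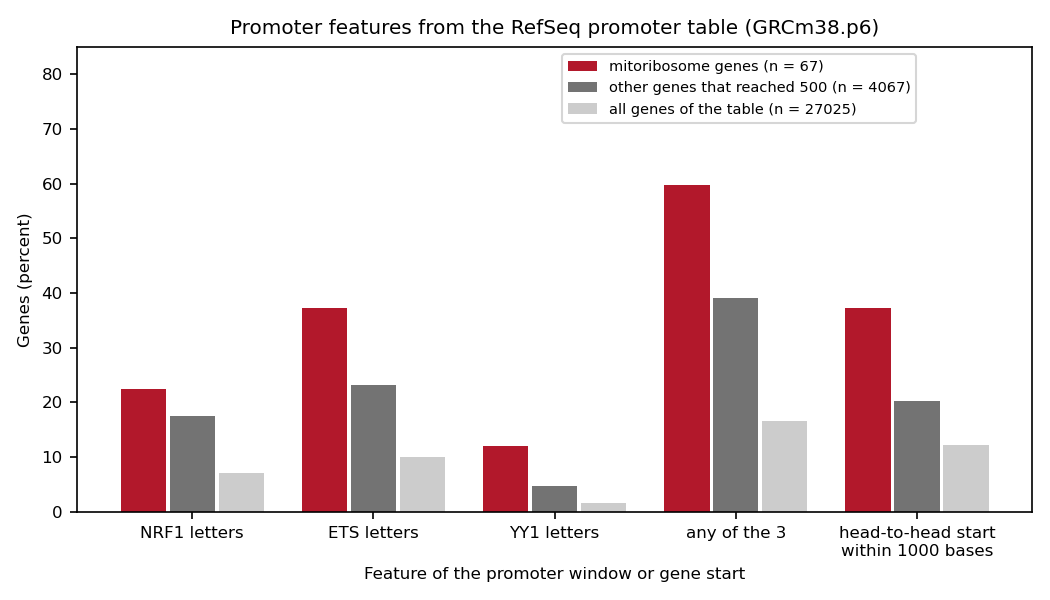
Percent of genes with NRF1, ETS or YY1 letters in the 300 base promoter window, with any of them, and with a head-to-head start within 1000 bases, for 67 mitochondrial ribosomal protein genes, 4067 other genes that reached 500 and all 27025 genes of the RefSeq table. The first bar of each trio is the highest, at 59.7% for any motif. The 67 genes include members under 500.

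The 15 members under 500 on both arrays were also within 1.5-fold. Their log2 ratios ran from -0.27 to 0.40. Mrpl37 was the highest, with a signal of 383 in the knock out and 290 in the wild type (0.40). Its only probe set carries a suffix for probes that may also match other transcripts. Mrpl48 had 360 in the knock out and 434 in the wild type (-0.27), but 401 in the knock out and 223 in the wild type (0.84) on a second probe set. Mrps5, related to bacterial uS5, had 250.3 in the knock out and 296 in the wild type (-0.24). Mrps27, a protein with pentatricopeptide repeats, had 296 in the knock out and 269 in the wild type (0.14). Between these lay Mrpl38, Mrpl40, Mrpl47, Mrpl49, Mrpl50, Mrpl55, Mrps9, Mrps11, Mrps31 and Mrps35. Of the 2 genes left out for a second symbol, Mrpl30 (annotated with Gm6238) had 1368 in the knock out and 1972 in the wild type (-0.53), and Mrpl53 (with Ccdc142) had 1310 in the knock out and 1185 in the wild type (0.14).

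Ribosome proteins with other names lay in the same range. Dap3, a GTP-binding protein of the small subunit, had a signal of 1066 in the knock out and 1174 in the wild type (-0.14). Chchd1 had 1499 in the knock out and 1317 in the wild type (0.19). Ptcd3 had 495 in the knock out and 523 in the wild type (-0.08). Gadd45gip1 stayed under 500 with 361 in the knock out and 324 in the wild type (0.15). Adding Dap3, Chchd1 and Ptcd3 left the median of the then 64 genes at 0.03.

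Few of the genes that serve the ribosome during translation in mitochondria reached 500. Of 14 translation factors found only 2 reached 500, Gfm1, the elongation factor that moves the ribosome along, with a signal of 684 in the knock out and 670 in the wild type (0.03), and Tufm, which delivers aminoacyl-tRNA, with 505 in the knock out and 468 in the wild type (0.11). Over all 14 the median was 0.02, with 8 above and 6 below 0, and the factors under 500 ran from -0.81 (Guf1, 63.1 in the knock out and 111 in the wild type) to 0.26 (Mtrf1l, 171 in the knock out and 143 in the wild type). The ratio of Guf1 rests on a low signal in the knock out, and its other probe set had 71.1 in the knock out and 72.4 in the wild type (-0.03). Of 18 aminoacyl-tRNA synthetases 3 reached 500, and over all 18 the median was 0.07, with 10 above and 8 below 0. Gars and Kars, which serve the cytosol as well, had 3418 and 1292 in the knock out and 3225 and 1239 in the wild type (0.08 and 0.06). Rars2 had 522 in the knock out and 629 in the wild type (-0.27). Tars2, under 500 on both arrays, was past 1.5-fold, with 285 in the knock out and 185 in the wild type (0.63). Its other probe set had 136 in the knock out and 129 in the wild type (0.07).

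Most assembly factors lay below 0. All 6 of the 28 that reached 500 were lower in the knock out, with a median of -0.31. Of these, Rbfa and Afg3l2, the lowest, reached 500 only on the wild type array, so the minimum itself favoured lower ratios for them. Over the 28 found 23 were below 0 and 5 above, with a median of -0.11. Of all genes that reached 500, 42.2% were above 0 and the median was -0.05, and of all 18193 genes 48.5% were above 0 and the median was -0.01. Rbfa, which readies the small subunit RNA, had a signal of 352 in the knock out and 518 in the wild type (-0.56). Afg3l2, the protease that processes Mrpl32, had 430 in the knock out and 577 in the wild type (-0.42). Malsu1, which keeps the unfinished large subunit from joining, had 671 in the knock out and 856 in the wild type (-0.35). Dhx30, an RNA helicase, had 822 in the knock out and 996 in the wild type (-0.28). Grsf1, of the RNA granules where assembly takes place, had 2266 in the knock out and 2384 in the wild type (-0.07). Mterf3 had 624 in the knock out and 646 in the wild type (-0.05). The median of the 6 was -0.42 with median centring and -0.71 with spike-in scaling, when that of all genes was -0.16 and -0.46. It was -0.29 with quantile and -0.28 with loess normalization, when that of all genes was -0.04. None of the 6 was past 1.5-fold, and with the mean over all probe sets 2 were above 0. Dhx30 had 3 further probe sets, with 687 in the knock out and 896 in the wild type (-0.38), 164 in the knock out and 296 in the wild type (-0.85) and 152 in the knock out and 136 in the wild type (0.16). With 6 genes on 1 pair of arrays this is a description.

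**Figure D5:**
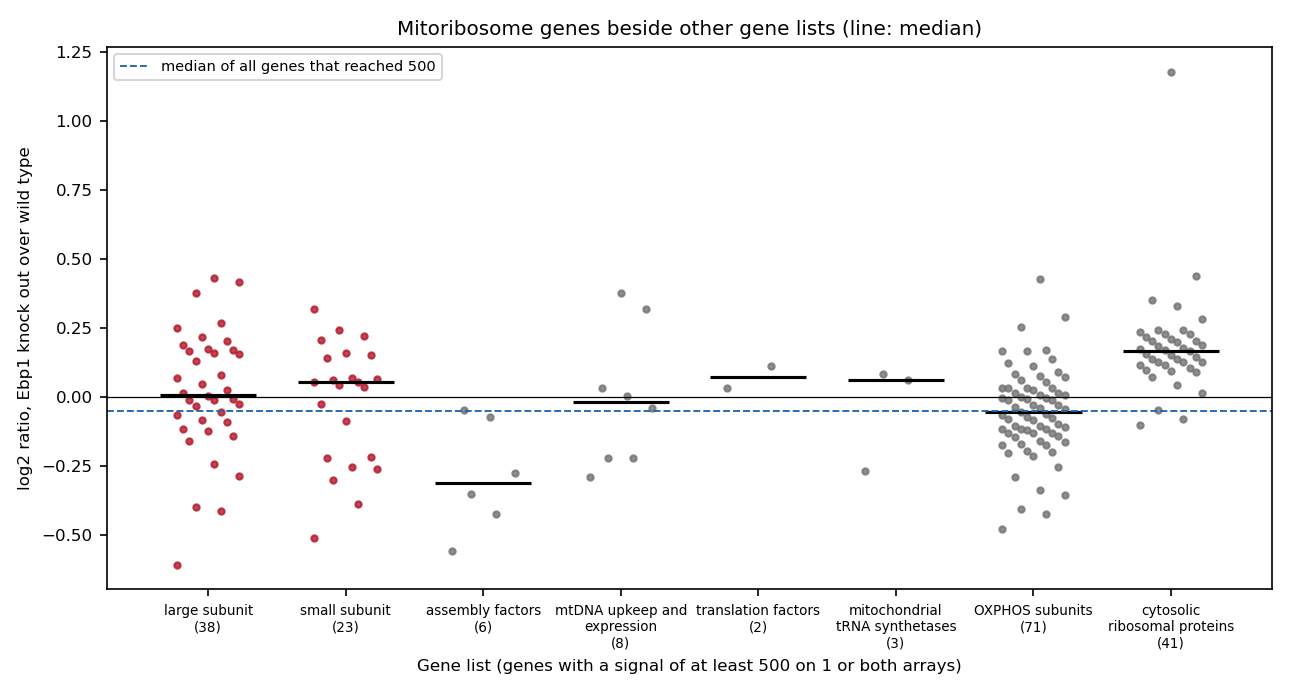
Log2 ratio of Ebp1 knock out over wild type for genes that reached 500, by gene list, with black lines at the medians and a dashed line at the median of all genes (-0.05). The large and small subunit genes centre on 0.01 and 0.05, the 6 assembly factors all lie below 0, and 38 of 41 cytosolic ribosomal protein genes lie above 0 at this scaling. Of the 6 assembly factors, Rbfa and Afg3l2 reached 500 only in the wild type.

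Genes that keep and transcribe mitochondrial DNA, the source of the ribosomal RNA, had a median of -0.02 over 8 that reached 500, 4 above and 4 below 0. Over all 17 found the median was -0.14, with 6 above and 11 below 0. Tfb2m, which opens the promoter for the mitochondrial polymerase, had a signal of 514 in the knock out and 396 in the wild type (0.38). Of the 8, Tfb2m reached 500 only in the knock out and Mtpap only in the wild type. Lrpprc, which stabilizes mitochondrial messenger RNAs, had 732 in the knock out and 588 in the wild type (0.32), while its partner Slirp had 1946 in the knock out and 1904 in the wild type (0.03). Polg, the DNA polymerase, had 543 in the knock out and 665 in the wild type (-0.29). Ssbp1, which coats single-stranded mitochondrial DNA, had 1491 in the knock out and 1738 in the wild type (-0.22). Its next brightest probe set had 923 in the knock out and 704 in the wild type (0.39), on the other side of 0. Polrmt, the RNA polymerase itself, had 637.5 in the knock out and 656 in the wild type (-0.04). On its other probe set Polrmt had 463 in the knock out and 673 in the wild type (-0.54).

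The cytosolic ribosome and the respiratory chain are set beside the mitochondrial ribosome genes, whose median was 0.04. The 71 nuclear genes of oxidative phosphorylation that reached 500 had a median of -0.06 and an SD of 0.16, with 25 above 0 and none past 1.5-fold. The brightest, Uqcrb of complex III, had a signal of 7318 in the knock out and 6955 in the wild type (0.07). The 41 cytosolic ribosomal protein genes had a median of 0.16, with 38 above 0, and among them Rps29 had 11642 in the knock out and 10667 in the wild type (0.13). Rps6 alone was over 2-fold higher, with 591 in the knock out and 261 in the wild type (1.18). It reached 500 only in the knock out, so the minimum itself favoured a higher ratio for it. The cytosolic median was 0.06 after median centring, 0.02 after quantile normalization and -0.23 after scaling to the spike-ins, so its sign too rests on the scaling. After quantile normalization it lay below the median of the mitochondrial ribosome genes (0.05), and after loess normalization both were 0.07, so the order of the lists rests on the scaling as well.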

How the data were processed

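Total RNA of Ebp1 knock out and wild type MEFs was labelled and hybridized to 1 array per genotype. The deposited values are MAS5 signal intensity values, which the authors scaled so that both arrays have the same trimmed mean. The array named in the study's methods is a human one, whereas the deposited probe set names and their annotation are of a mouse array. Depth has no counterpart on arrays, where the number of arrays limits the precision.

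After 64 control probe sets were set aside, 45037 remained, of which 34945 had 1 gene symbol, 932 several and 9160 none in the platform annotation. Each of the 18193 genes took the value of its probe set with the highest mean log2 signal. A gene counted as measured with a signal of 500 on at least 1 array, the minimum in the study's methods, which 5014 genes reached. Signals under 100 were low. Differences are log2 ratios, with knock out as numerator, counted past 2-fold and 1.5-fold. No test was made. Described in full were the 8 brightest members of each subunit, the 8 largest ratios in each direction, members past 1.5-fold, the bS18 genes and the structural groups. Of other lists these were the brightest genes and those past 1.5-fold with 100 or more on both arrays. Members and lists were chosen with earlier results of these data known. Promoters are from the RefSeq table of GRCm38.p6, and 67 members matched by gene identifier. Alternatives covered scaling, low signals, the minimum, the probe set and the make-up of the lists. Scripts were tested on simulated data and ran in Python 3.11.15 with numpy 2.4.6, pandas 2.3.3, statsmodels 0.14.6 and matplotlib 3.10.9.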

Additional observations from a re-analysis of the deposited data

How the results depend on the processing

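No paired analysis was possible because each genotype had a single array. The median log2 ratio of the members moved further than the SD within a gene (0.37) only with scaling to the 9 spike-in probe sets, when it was -0.37, and -0.40 for the large and -0.34 for the small subunit. That scaling subtracts 0.39 from every log2 ratio. It left 2 of 58 members above 0, 12 over 1.5-fold lower and 1 over 2-fold lower. Of all genes 32.6% were over 1.5-fold lower with that scaling, and the share past 2-fold was not counted. Median centring, which shifts every log2 ratio by -0.11, left 21 of 61 above 0 and 2 over 1.5-fold lower, Mrpl11 and Mrps24. Of all genes 8.15% were over 1.5-fold lower after it. The count over 1.5-fold lower was 0 after quantile or loess normalization, with 50 added to each signal, with the mean over all probe sets and without probe sets of the suffixes _x_at and _s_at. In these settings between 3.71% and 4.66% of all genes were over 1.5-fold lower. The mean over probe sets put 1 member over 1.5-fold higher (Mrpl21, 0.73), against 7.80% of all genes. That mean includes a probe set low on both arrays, with 30.6 in the knock out and 6.16 in the wild type (2.31). The probe sets of Mrpl21 above 100 were at 0.25 and -0.37. Leaving out the suffixes put Mrpl19 over 1.5-fold and 2-fold higher (1 member in each count) and turned Mrpl11 to 0.29. Of all genes 3.41% were over 1.5-fold higher in that setting. It kept 73 members and gave no value for Mrps24 or Mrpl37, whose probe sets all carry a suffix. The other alternatives, which raised signals to 100, changed the minimum or regrouped members, left these counts within 1.5 times of those reported. The large minus small difference was between -0.05 and -0.01 except for 0.06 with the mean over probe sets, and the large subunit median was -0.10 after median centring and -0.00 with 500 required on both arrays. Of 605 values of single members under the alternatives of scaling, low signals and probe set, 87 moved by more than 0.37, 76 of them with the spike-ins. The spike-in shift of 0.39 made every member move. The shift of median centring is too small to move any, and no member was low, so raising signals to 100 could change none. The tally is therefore no measure of stability. With 1 array per genotype and signals mostly between 250 and 2000, differences of the size seen between probe sets of 1 gene cannot be told from none.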
